A study of Mus musculus with 9 samples.

Results

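The WNT ligands, receptors and modulators examined here are 42 mouse genes measured in ear skin. They were taken from 54838 genes in the count matrix, of which 29392 had at least 1 count. Protein-coding genes entered by symbol: those starting with Wnt, Fzd, Sfrp, Dkk or Rspo followed by a number, and Lgr4, Lgr5, Lgr6, Lrp5, Lrp6, Axin2, Lef1, Tcf7, Tcf7l1, Tcf7l2, Wif1, Notum, Frzb and Porcn. Of 55 such genes, 42 reached 10 counts summed over the 9 libraries. The rule uses symbols and total counts and no difference between groups, although the rule itself was written with earlier results of these data known. The 13 genes under that minimum were Rspo2, Rspo4, Wnt1, Wnt2, Wnt7a, Wnt8a, Wnt8b, Wnt9b, Wnt11, Dkk1, Dkk4, Sfrp2 and Sfrp4, and Wnt1, Wnt8a and Dkk1 had 0 counts in all libraries.

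The study used 3' tag RNA-Seq on the ears of mice of strain C57BL/6 after raising interleukin 23 (IL-23), a cytokine that drives psoriasis-like skin inflammation, with and without MDL-1, a myeloid receptor encoded by Clec5a. The 9 libraries fall into 3 groups of 3. Mdl-1-/- mice were given IL-23 minicircle DNA, wild-type (WT) mice were given the same IL-23 DNA, and WT mice were given minicircle DNA for green fluorescent protein (GFP). A minicircle is a small circular expression DNA without a plasmid backbone. All animals were 10 weeks old and received 15 µg of DNA by hydrodynamic injection into the tail vein, so the GFP group carries the injection and the minicircle too. There was no Mdl-1-/- group with GFP DNA, so a difference between genotypes that existed before IL-23 cannot be told apart from a difference in the response to IL-23. The labels do not say that the libraries of a group came from separate animals, and the p-values measure only the spread between these libraries.

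WNT proteins are secreted lipid-modified ligands that need the acyltransferase Porcn to leave the cell. They bind Frizzled receptors together with the co-receptors Lrp5 or Lrp6, which stabilises β-catenin and lets it join TCF and LEF factors at target genes such as Axin2, itself a brake on the pathway. R-spondins acting through Lgr receptors raise the amount of Frizzled at the cell surface, while SFRP, DKK, WIF1 and NOTUM proteins restrain the signal. In skin the pathway is known for driving hair follicle formation and growth and for upkeep of the epidermis.

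Library totals ran from 3776188 to 5605713 counts, while the labels give an average of 600000 reads. Mitochondrial genes took 11.4% to 12.9% of counts in Mdl-1-/- IL-23 libraries, 8.69% to 8.99% in WT IL-23 libraries and 12.6% to 15.1% in WT GFP libraries, and the part of this difference in the WNT results was not tested. Clec5a had 10, 13 and 5 counts in Mdl-1-/- IL-23 libraries, 17, 21 and 11 in WT IL-23 libraries and 2, 7 and 10 in WT GFP libraries. Which part of the gene is deleted is not named in the labels, so these end-of-transcript counts check no genotype. Levels below are CPM, the usual library-size-normalised counts, with library sizes TMM-scaled; each read marks the end of a transcript, and levels are compared between groups for 1 gene and not between genes.

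With IL-23 in wild type, 23 of the 36 tested WNT genes fell and 3 rose. A gene was called when the adjusted p of edgeR's quasi-likelihood test was under 0.05 after Benjamini-Hochberg adjustment over all 13807 tested genes. Genes called lower were 63.9% of tested WNT genes, beside 21.7% of all tested genes, and genes called higher were 8.33%, beside 22.9%. The median log2 fold change of the tested WNT genes was -1.21, and that of all tested genes was -0.04. In 22 of the 36 tested WNT genes every WT IL-23 library lay below every GFP library, beside 27.1% of all tested genes. The same held for 3 members too low to test (Wnt5b, Wnt9a and Notum). For Wnt9a and Notum the WT IL-23 group held 1 count and the lowest GFP libraries 2 counts, and neither was called without a count filter. The 6 members Rspo1, Wnt2b, Wnt3a, Wnt5b, Wnt9a and Notum were too low to be tested, and 7 tested members stood below the filter's level of 2.13 CPM, taken before TMM scaling, in all WT IL-23 libraries (Rspo3, Wnt10b, Lef1, Fzd7, Fzd9, Dkk2 and Sfrp5). Of these, Lef1 reached that level in the GFP libraries alone. Rspo3, Wnt10b and Sfrp5 reached it in all 3 GFP libraries and in 2, 1 and 1 Mdl-1-/- libraries. Wnt6 reached it in 3 GFP, 2 WT IL-23 and 0 Mdl-1-/- libraries. The filter asks for 3 libraries at that level, so these genes passed only with the GFP libraries, where their means were highest. Their calls against GFP are thus not independent of the filter, and the counts describe the tested genes and not all members.

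Under IL-23, 10 of the 36 tested WNT genes were higher in Mdl-1-/- ears than in WT ears and 1, Porcn, was lower. That is 27.8% called higher beside 7.58% of all tested genes, and 2.78% called lower beside 10.1%. The median log2 fold change was 0.50 for the tested WNT genes and 0.00 for all tested genes. Between Mdl-1-/- IL-23 ears and WT GFP ears, 12 WNT genes were lower (33.3%, beside 6.93% of all tested genes) and 1 was higher (2.78%, beside 10.2%). Of the lower ones, Rspo3, Wnt10b and Wnt6 passed the filter only with the GFP libraries, so these calls are not independent of the filter. The count between genotypes was 6 without WT IL-23 library 2, 6 without WT IL-23 library 3 and 7 without Mdl-1-/- library 1, in place of 11. The count against GFP was 6 without GFP library 1 and 7 without GFP library 3 or Mdl-1-/- library 2 or 3, in place of 13. Upper-quartile scaling moved the share of calls over all genes that were higher to 38.9%, in place of 51.3%, for WT IL-23 against GFP, to 53.2%, in place of 42.9%, between genotypes and to 43.7%, in place of 59.4%, in Mdl-1-/- IL-23 relative to GFP ears. It turned no called WNT gene round. The 3 comparisons share libraries, so a high or low library of 1 group enters 2 of them. The mean of the Mdl-1-/- libraries lay between the means of the WT groups for 25 of the 36 tested genes (69.4%), beside 57% of all tested genes.

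Summed over the 42 members, the level was 791, 670.1 and 681 CPM in Mdl-1-/- IL-23 libraries, 600.4, 588 and 464 CPM in WT IL-23 libraries and 1142, 1059 and 1167 CPM in WT GFP libraries. The 3 groups did not overlap in this sum. Wif1 alone took a large part of it. Without Wif1 the sum was 675, 605 and 597 CPM in Mdl-1-/- IL-23 libraries, 528, 503 and 417 CPM in WT IL-23 libraries and 806, 750.3 and 814 CPM in WT GFP libraries, and the groups again did not overlap.

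**Figure D1:**
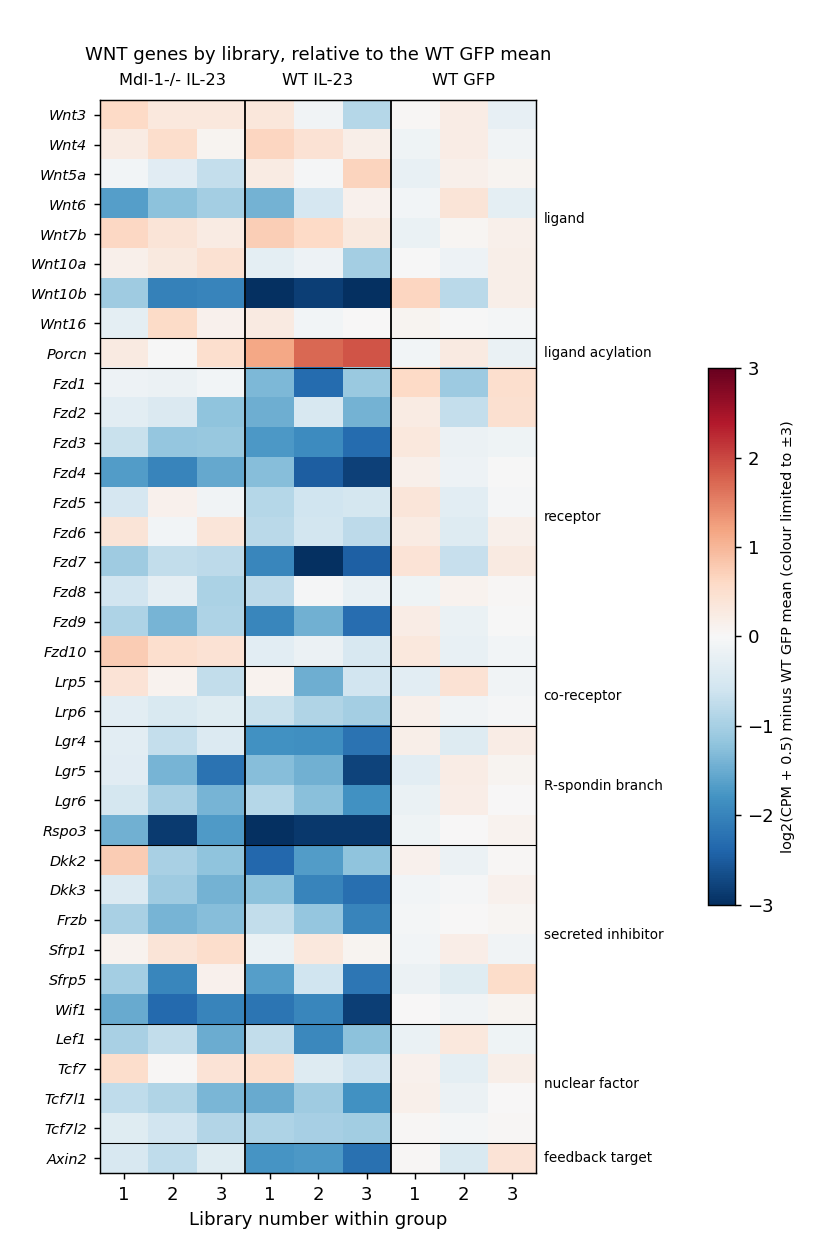
Level of the 36 tested WNT genes in each library, as log2(CPM + 0.5) minus the mean of the WT GFP libraries, with colours limited to 3 in either direction. Columns are the 3 libraries of each group and rows are genes by role; most receptor, R-spondin and inhibitor genes are blue in the WT IL-23 columns, and Porcn is red there.

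Among the ligands, IL-23 in wild type went with a fall of Wnt10b and small rises of Wnt4 and Wnt7b. The other 5 tested ligand genes were not called. That is 12.5% of tested ligands lower, beside 21.7% of all tested genes, and 25% higher, beside 22.9%. The 8 tested ligands of 12 had a median log2 fold change of -0.02 in that comparison, beside -0.04 for all tested genes. Wnt10b, a ligand active in hair follicle growth (chromosome 15, 98770712 to 98778150, minus strand of GRCm38), had 2.67, 1.14 and 1.19 CPM in Mdl-1-/- IL-23 libraries, 0.228, 0.436 and 0.329 CPM in WT IL-23 libraries and 9.86, 3.29 and 7.07 CPM in WT GFP libraries. The 3 groups did not overlap, and the WT IL-23 values rest on 1, 2 and 1 counts. Wnt10b passed the filter on low counts only with the GFP libraries, so its calls against GFP are not independent of the filter. Its log2 fold change was -4.24 (SE 0.63, adjusted p = 7.24e-05) in WT IL-23 relative to GFP ears and -1.996 (SE 0.46, adjusted p = 0.00756) in Mdl-1-/- IL-23 relative to GFP ears. Between Mdl-1-/- and WT ears under IL-23 the log2 difference of 2.25 (SE 0.77, adjusted p = 0.0528) missed the threshold, and passed it without GFP library 1 (0.0490) or 2 (0.0277), with upper-quartile scaling (0.0493), without a count filter (0.0276) and with the replicate block (0.0331). Leaving out GFP library 1 ended the call of Mdl-1-/- IL-23 against GFP ears (adjusted p = 0.0532).

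Wnt10a, also a hair follicle and epidermal ligand, had 28.3, 31.2 and 35.3 CPM in Mdl-1-/- IL-23 libraries, 20.6, 22.7 and 12.2 CPM in WT IL-23 libraries and 25.1, 22.6 and 28.9 CPM in WT GFP libraries. All Mdl-1-/- values lay above all WT IL-23 values, and both IL-23 groups overlapped the GFP group. It was 1.68-fold higher in Mdl-1-/- than in WT ears under IL-23 (log2 fold change 0.75, SE 0.21, adjusted p = 0.0237). That call was lost without WT IL-23 library 3 (adjusted p = 0.0855) and likewise without Mdl-1-/- library 3 (0.0823).

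Wnt6 lies next to Wnt10a on chromosome 1 (74771892 to 74785322, with Wnt10a at 74791516 to 74804179, both on the plus strand of GRCm38). Wnt6 had 0.891, 1.37 and 1.67 CPM in Mdl-1-/- IL-23 libraries, 1.14, 2.62 and 4.28 CPM in WT IL-23 libraries and 3.63, 5.29 and 3.07 CPM in WT GFP libraries. The Mdl-1-/- values lay below all GFP values, and the WT IL-23 values overlapped both other groups. Wnt6 passed the filter on low counts only with the GFP libraries. Its log2 fold change was -1.59 (SE 0.49, adjusted p = 0.0330) in Mdl-1-/- IL-23 relative to GFP ears. It was lost with limma voom (adjusted p = 0.0543) and without any one of the GFP libraries (0.0668, 0.108 and 0.0539 without library 1, 2 and 3) or the Mdl-1-/- libraries (0.0984, 0.0938 and 0.0559).

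Wnt7b, which takes part in hair follicle growth, rose 1.47-fold with IL-23 in wild type (log2 fold change 0.55, SE 0.18, adjusted p = 0.0180). Its mean was 33.8 ± 4.78 CPM in Mdl-1-/- IL-23 ears, 36.9 ± 5.49 CPM in WT IL-23 ears and 25.2 ± 3.08 CPM in WT GFP ears (SD, n = 3). The Wnt7b call was lost with upper-quartile scaling (adjusted p = 0.0725), without GFP library 1 (0.0791) and without WT IL-23 library 1 (0.0689) or 2 (0.0576). Wnt4, an epidermal ligand, averaged 60.8 ± 10.0 CPM in Mdl-1-/- IL-23 ears, 66.7 ± 11.3 CPM in WT IL-23 ears and 49.6 ± 6.72 CPM in WT GFP ears (SD, n = 3). Its log2 fold change of 0.43 for WT IL-23 against GFP (SE 0.17, adjusted p = 0.0499) was at the threshold and was lost in 13 of 18 alternatives. Among them were leaving out GFP library 1 (adjusted p = 0.157) or 3 (0.165), WT IL-23 library 1 (0.186) or 2 (0.109) and Mdl-1-/- library 1 (0.0523) or 3 (0.0528), and with upper-quartile scaling its log2 fold change was 0.28.

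The other tested ligands, Wnt3, Wnt5a and Wnt16, were not called in any comparison with all libraries. Wnt5a, the best known ligand of β-catenin-independent signalling, had 12.5, 10.5 and 7.87 CPM in Mdl-1-/- IL-23 libraries, 15.99, 12.9 and 21.4 CPM in WT IL-23 libraries and 11.2, 14.8 and 14.1 CPM in WT GFP libraries. Every Mdl-1-/- value was under every WT IL-23 value, as in 19.3% of all tested genes. The log2 difference of -0.68 (SE 0.25, adjusted p = 0.0669) missed the threshold. Wnt3 stood between 9.55 and 27.2 CPM, and without WT IL-23 library 1 it was called higher in Mdl-1-/- than in WT ears under IL-23 (log2 fold change 0.84, adjusted p = 0.0357). Wnt16 stood between 2.004 and 4.10 CPM over all 9 libraries.

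The 4 ligands too low to test are given as counts. Wnt5b, a ligand close in sequence to Wnt5a, had 3, 5 and 1 counts in Mdl-1-/- IL-23 libraries, 0, 2 and 0 counts in WT IL-23 libraries and 14, 14 and 11 counts in WT GFP libraries. The WT IL-23 level was 0.0759 times that of the GFP group (95% interval 0.00888 to 0.293, counting error only). Without a count filter edgeR gave a log2 fold change of -3.56 with an adjusted p of 0.000631. Adjusted p-values of that fit are not on the scale of the main fit. For WT IL-23 against GFP, Wif1 had 1.47e-42 in place of 6.80e-06 and Lef1 0.0466 in place of 0.0268. The gene overlaps Fbxl14 on the other strand, and as the strand setting of the counting is not given in the sources used here, reads of the overlap cannot be told apart. Wnt3a and Wnt9a are neighbours on chromosome 11 and each had 1 count over the WT IL-23 group. Wnt3a had 7, 1 and 14 counts and Wnt9a 8, 1 and 11 counts over the Mdl-1-/- IL-23, WT IL-23 and WT GFP groups. Wnt2b had 5, 7 and 11 counts over the same groups. None of Wnt2b, Wnt3a and Wnt9a was called without a count filter.

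Porcn, which encodes the acyltransferase that lipid-modifies WNT proteins (chromosome X, 8193848 to 8206525, minus strand), differed in direction from most members. It had 7.57, 6.15 and 9.06 CPM in Mdl-1-/- IL-23 libraries, 14.6, 21.8 and 24.4 CPM in WT IL-23 libraries and 5.88, 7.67 and 5.38 CPM in WT GFP libraries. All WT IL-23 values lay above all others, and the Mdl-1-/- and GFP values overlapped. Porcn rose 3.19-fold with IL-23 in wild type (log2 fold change 1.67, SE 0.26, adjusted p = 0.000103) and was 2.65-fold lower in Mdl-1-/- than in WT ears under IL-23 (log2 fold change -1.41, SE 0.26, adjusted p = 0.00303). Both calls held in all 18 alternatives. Between Mdl-1-/- IL-23 and GFP ears the log2 difference was 0.27 (95% interval -0.41 to 0.94, adjusted p = 0.541).

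Of the 10 Frizzled receptor genes, all of them tested, 8 fell with IL-23 in wild type (80%, beside 21.7% of all tested genes). The others, Fzd8 and Fzd10, were not called. Under IL-23, 5 of the 10 were higher in Mdl-1-/- than in WT ears (50%, beside 7.58% of all tested genes). These were Fzd1, Fzd3, Fzd6, Fzd7 and Fzd10. The median log2 fold change of the family was -1.54 in WT IL-23 relative to GFP ears and 0.91 in Mdl-1-/- relative to WT ears under IL-23, beside -0.04 and 0.00 for all tested genes. Against GFP ears, 3 were lower in Mdl-1-/- IL-23 ears (Fzd3, Fzd4 and Fzd9) and Fzd10 was higher. That is 30% lower, beside 6.93% of all tested genes, and 10% higher, beside 10.2%.

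Fzd7 (chromosome 1, 59482424 to 59486955, plus strand) had 4.23, 5.47 and 5.25 CPM in Mdl-1-/- IL-23 libraries, 2.06, 0.654 and 1.32 CPM in WT IL-23 libraries and 12.8, 5.66 and 11.5 CPM in WT GFP libraries. The 3 groups did not overlap. It fell 7.40-fold with IL-23 in wild type (log2 fold change -2.89, SE 0.43, adjusted p = 7.69e-05) and was 3.67-fold higher in Mdl-1-/- than in WT ears under IL-23 (log2 fold change 1.88, SE 0.47, adjusted p = 0.0132). Without WT IL-23 library 2, the lowest, the second call was lost (adjusted p = 0.0725). Between Mdl-1-/- IL-23 and GFP ears the log2 difference of -1.01 (SE 0.35, adjusted p = 0.0542) missed the threshold, and passed it without GFP library 2 (0.0128) or WT IL-23 library 1 (0.0464), with upper-quartile scaling (0.0363), without a count filter (0.0251) and at a minimum count of 30 (0.0474).

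Fzd1, close to Fzd2 and Fzd7 in sequence, had 9.58, 9.34 and 10.0 CPM in Mdl-1-/- IL-23 libraries, 3.88, 1.75 and 4.61 CPM in WT IL-23 libraries and 16.2, 4.75 and 15.2 CPM in WT GFP libraries. GFP library 2 lay just above the highest WT IL-23 library, and the Mdl-1-/- libraries lay within the GFP range. Fzd1 fell 3.66-fold with IL-23 in wild type (log2 fold change -1.87, SE 0.44, adjusted p = 0.00393) and was 2.90-fold higher in Mdl-1-/- ears (log2 fold change 1.54, SE 0.46, adjusted p = 0.0346). The second call was lost with limma voom (adjusted p = 0.0685) and without any one of the WT IL-23 libraries (0.0634, 0.131 and 0.0573 without library 1, 2 and 3) or the Mdl-1-/- libraries (0.0850, 0.0600 and 0.0827). Fzd2 had 6.24, 5.70 and 3.10 CPM in Mdl-1-/- IL-23 libraries, 2.51, 5.45 and 2.63 CPM in WT IL-23 libraries and 9.34, 4.56 and 11.1 CPM in WT GFP libraries. Its groups overlapped, and its log2 fold change of -1.21 with IL-23 in wild type (SE 0.40, adjusted p = 0.0225) was not called without GFP library 1 (0.0657) or 3 (0.113) or without WT IL-23 library 1 (0.0910) or 3 (0.0767).

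Fzd3 and Fzd6 are the Frizzled genes known for planar cell polarity, and Fzd6 sets hair orientation in mouse skin. Fzd3 had 13.4, 9.34 and 9.54 CPM in Mdl-1-/- IL-23 libraries, 6.17, 5.45 and 3.95 CPM in WT IL-23 libraries and 26.6, 19.0 and 19.4 CPM in WT GFP libraries. Its 3 groups did not overlap, and it was the only member called in all 3 comparisons: 4.10-fold lower with IL-23 in wild type (log2 fold change -2.04, SE 0.26, adjusted p = 1.81e-05), 2.04-fold higher in Mdl-1-/- than in WT ears under IL-23 (1.02, SE 0.27, adjusted p = 0.0179), and 2.01-fold lower in Mdl-1-/- IL-23 than in GFP ears (-1.01, SE 0.23, adjusted p = 0.00721). The Fzd3 difference between genotypes was not called without WT IL-23 library 2 (adjusted p = 0.0567) or 3 (0.0647) or Mdl-1-/- library 1 (0.0869), and that between Mdl-1-/- IL-23 and GFP was not called without GFP library 1 (0.0532). Fzd6 had 30.9, 22.3 and 30.3 CPM in Mdl-1-/- IL-23 libraries, 13.2, 15.9 and 13.5 CPM in WT IL-23 libraries and 28.0, 17.9 and 26.1 CPM in WT GFP libraries. The WT IL-23 libraries were the lowest, and the other two groups overlapped. Fzd6 was 1.69-fold lower with IL-23 in wild type (log2 fold change -0.76, SE 0.21, adjusted p = 0.00926) and 1.95-fold higher in Mdl-1-/- ears (0.96, SE 0.22, adjusted p = 0.00754), and both calls held in all 18 alternatives.

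Fzd10 was not called with IL-23 in wild type and was higher in Mdl-1-/- ears. It had 37.4, 31.0 and 29.3 CPM in Mdl-1-/- IL-23 libraries, 17.4, 19.2 and 15.5 CPM in WT IL-23 libraries and 27.0, 18.6 and 20.4 CPM in WT GFP libraries. The Mdl-1-/- libraries lay above all others, and the WT groups overlapped. Fzd10 was 1.87-fold higher in Mdl-1-/- than in WT ears under IL-23 (log2 fold change 0.90, SE 0.19, adjusted p = 0.00628), a call that held in all 18 alternatives. It was also the only member higher in Mdl-1-/- IL-23 than in GFP ears (log2 fold change 0.56, SE 0.19, adjusted p = 0.0462). That second call was lost in 11 of 18 alternatives, among them upper-quartile scaling (adjusted p = 0.0974), without GFP library 2 (0.0955) or 3 (0.142), without WT IL-23 library 2 (0.0545) and without Mdl-1-/- library 1 (0.144), 2 (0.0875) or 3 (0.0525).

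Fzd4, which also serves as the receptor of the vascular ligand norrin, had 4.90, 3.87 and 5.48 CPM in Mdl-1-/- IL-23 libraries, 6.62, 2.62 and 1.98 CPM in WT IL-23 libraries and 18.7, 15.2 and 16.8 CPM in WT GFP libraries. Both IL-23 groups lay well below the GFP group and overlapped each other. Fzd4 changed by -2.12 on the log2 scale in WT IL-23 relative to GFP ears (SE 0.33, adjusted p = 0.000115) and by -1.83 in Mdl-1-/- IL-23 relative to GFP ears (SE 0.32, adjusted p = 0.00109). Without WT IL-23 library 1, the highest of its group, the first was -2.83. The log2 difference between genotypes under IL-23 was 0.30 (95% interval -0.62 to 1.22, adjusted p = 0.623).

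Fzd9 had 3.34, 2.28 and 3.34 CPM in Mdl-1-/- IL-23 libraries, 1.37, 2.18 and 0.988 CPM in WT IL-23 libraries and 7.95, 5.84 and 6.76 CPM in WT GFP libraries. The 3 groups did not overlap. The closest Mdl-1-/- and WT IL-23 libraries both held 10 counts, so their gap came only from library scaling. Fzd9 was not called between genotypes under IL-23 (log2 difference 0.92, SE 0.42, adjusted p = 0.138). It fell 4.34-fold with IL-23 in wild type (log2 fold change -2.12, SE 0.38, adjusted p = 0.000338) and was 2.29-fold lower in Mdl-1-/- IL-23 than in GFP ears (-1.20, SE 0.34, adjusted p = 0.0218). The second call did not hold without GFP library 1 (adjusted p = 0.0948) or 3 (0.0711) or Mdl-1-/- library 2 (0.102). Fzd5 stood between 6.17 and 15.04 CPM over all libraries, and the WT IL-23 libraries lay below all others. It fell 1.66-fold with IL-23 in wild type (log2 fold change -0.73, SE 0.27, adjusted p = 0.0354). The Fzd5 call was lost with DESeq2 (adjusted p = 0.0587), without GFP library 1 (0.189) or 3 (0.0673) and without WT IL-23 library 1 (0.115), 2 (0.0789) or 3 (0.0546). Fzd8, close to Fzd5 in sequence, stood between 3.81 and 8.40 CPM and was not called in any comparison.

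**Figure D2:**
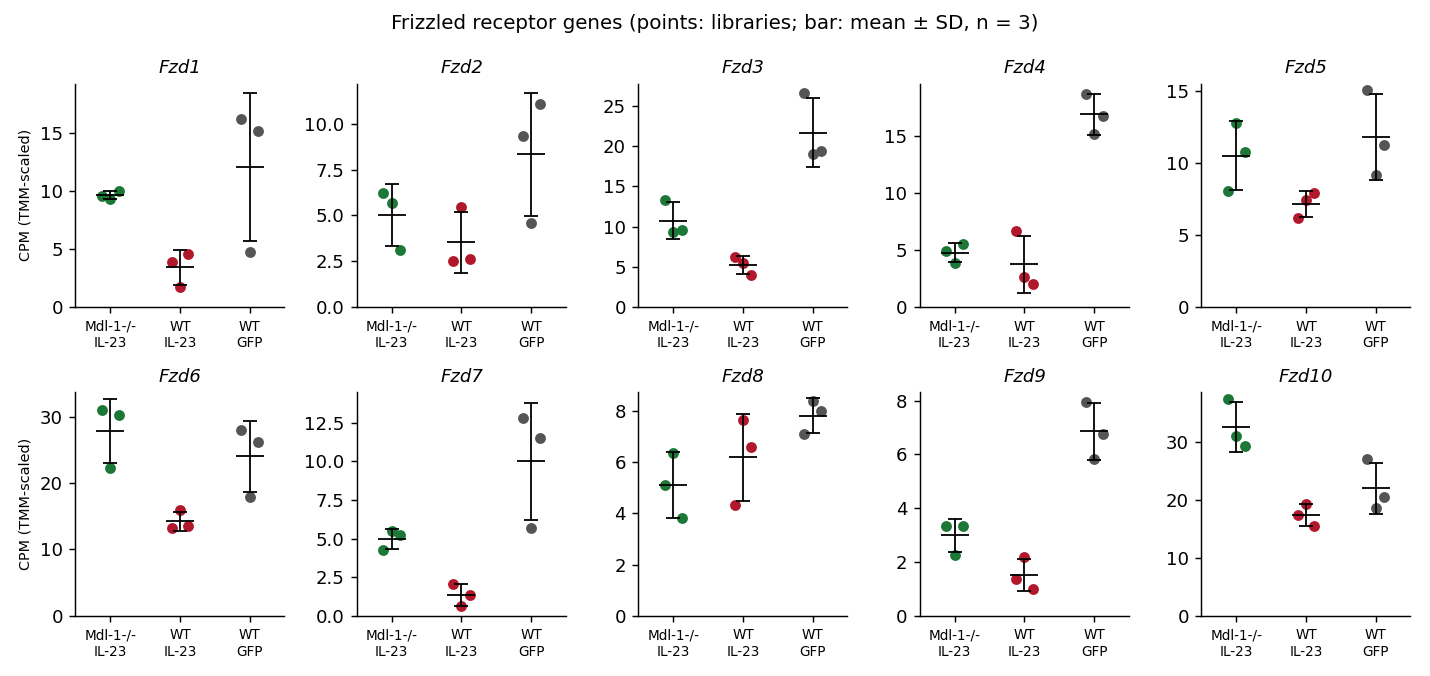
CPM of the 10 Frizzled receptor genes in each library (points), with the mean and SD of the 3 libraries of a group (bars). Groups run from Mdl-1-/- IL-23 through WT IL-23 to WT GFP. The WT IL-23 points are the lowest for Fzd1, Fzd3, Fzd5, Fzd6, Fzd7 and Fzd9, and the Mdl-1-/- points are the highest for Fzd10.

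Of the co-receptors, Lrp6 fell with IL-23 in wild type and Lrp5 was not called in any comparison. Lrp6 had 44.8, 40.6 and 43.4 CPM in Mdl-1-/- IL-23 libraries, 35.4, 29.9 and 27.7 CPM in WT IL-23 libraries and 62.6, 52.0 and 54.7 CPM in WT GFP libraries. The 3 groups did not overlap. Lrp6 fell 1.82-fold with IL-23 in wild type (log2 fold change -0.86, SE 0.15, adjusted p = 0.000343) and was 1.38-fold higher in Mdl-1-/- than in WT ears under IL-23 (0.47, SE 0.16, adjusted p = 0.0499). The second call sat at the threshold and was lost in 11 of 18 alternatives, among them RLE scaling (adjusted p = 0.0529), DESeq2 (0.0698), without GFP library 1 (0.0534) or 3 (0.0627), without WT IL-23 library 2 (0.143) or 3 (0.145) and without Mdl-1-/- library 1 (0.141), 2 (0.0641) or 3 (0.106). Lrp5 ran between 0.654 and 3.83 CPM with overlapping groups, and its log2 difference of WT IL-23 against GFP was -0.66 (95% interval -1.95 to 0.64).

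All 4 tested genes of the R-spondin branch fell with IL-23 in wild type, with a median log2 fold change of -1.94, beside 21.7% of all tested genes called lower and a median of -0.04 over them. Among them Rspo3 passed the filter on low counts only with the GFP libraries, so its calls against GFP are not independent of the filter. Lgr4, a receptor of R-spondins with wide expression in epithelia (chromosome 2, 109917647 to 110014257, plus strand), had 50.8, 38.7 and 47.7 CPM in Mdl-1-/- IL-23 libraries, 17.6, 17.2 and 13.2 CPM in WT IL-23 libraries and 71.8, 48.2 and 73.6 CPM in WT GFP libraries. The WT IL-23 libraries lay below all others, and the Mdl-1-/- range reached into the GFP range. Lgr4 fell 4.01-fold with IL-23 in wild type (log2 fold change -2.003, SE 0.20, adjusted p = 2.62e-06) and was 2.83-fold higher in Mdl-1-/- than in WT ears under IL-23 (1.502, SE 0.20, adjusted p = 0.000891), and both calls held in all 18 alternatives. Its log2 difference between Mdl-1-/- IL-23 and GFP ears was -0.50 (95% interval -0.95 to -0.05, adjusted p = 0.0696), and without GFP library 2 it was called (-0.64, adjusted p = 0.0154).

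Rspo3, the only secreted R-spondin with enough counts to test (chromosome 10, 29452416 to 29535867, minus strand), had 2.67, 0.683 and 2.15 CPM in Mdl-1-/- IL-23 libraries, 0.228, 0.654 and 0.659 CPM in WT IL-23 libraries and 7.44, 8.21 and 8.76 CPM in WT GFP libraries. Both IL-23 groups lay far below GFP, and the lowest Mdl-1-/- value was just above the highest WT IL-23 value, where the WT IL-23 libraries held 1, 3 and 2 counts. Rspo3 fell 15.5-fold with IL-23 in wild type (log2 fold change -3.96, SE 0.51, adjusted p = 2.15e-05) and was 4.40-fold lower in Mdl-1-/- IL-23 than in GFP ears (-2.14, SE 0.40, adjusted p = 0.00183). Both calls held in all 18 alternatives. Between genotypes under IL-23 the log2 difference of 1.82 (SE 0.62, adjusted p = 0.0533) missed the threshold, and without Mdl-1-/- library 2 it was 2.22 (adjusted p = 0.0168). Rspo1, too low to test, had 6, 2 and 5 counts over the Mdl-1-/- IL-23, WT IL-23 and WT GFP groups.

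Lgr5 and Lgr6 mark stem cell populations of the hair follicle in mouse. Lgr5 had 5.79, 2.51 and 1.19 CPM in Mdl-1-/- IL-23 libraries, 2.74, 2.40 and 0.659 CPM in WT IL-23 libraries and 5.88, 8.76 and 7.84 CPM in WT GFP libraries. Both IL-23 groups lay below the GFP group and overlapped each other. Lgr5 fell 3.65-fold with IL-23 in wild type (log2 fold change -1.87, SE 0.48, adjusted p = 0.00571), and its log2 difference between genotypes under IL-23 was 0.64 (95% interval -0.68 to 1.96). Between Mdl-1-/- IL-23 and GFP ears the log2 difference was -1.23 (SE 0.45, adjusted p = 0.0699), and without Mdl-1-/- library 1 it was -1.99 and called (adjusted p = 0.00871). Lgr6 had 31.8, 23.2 and 17.4 CPM in Mdl-1-/- IL-23 libraries, 25.1, 19.2 and 12.8 CPM in WT IL-23 libraries and 39.9, 52.9 and 46.6 CPM in WT GFP libraries. It showed the same order, with both IL-23 groups below GFP. Lgr6 was 2.41-fold lower with IL-23 in wild type (log2 fold change -1.27, SE 0.24, adjusted p = 0.000606) and 1.92-fold lower in Mdl-1-/- IL-23 than in GFP ears (-0.94, SE 0.23, adjusted p = 0.0116), and its log2 difference between genotypes was 0.33 (95% interval -0.28 to 0.93). Against GFP ears the Mdl-1-/- call was lost without Mdl-1-/- library 2 (adjusted p = 0.0597) or 3 (0.0594).

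The secreted inhibitors fell with IL-23 in wild type in 5 of 6 tested genes, beside 21.7% of all tested genes, and the exception, Sfrp1, was not called. Among the 5, Sfrp5 passed the filter on low counts only with the GFP libraries, and its call was lost in 10 of 17 alternatives. Only Dkk2 was called between genotypes under IL-23. Wif1, whose protein binds WNT ligands outside the cell (chromosome 10, 121033960 to 121100650, plus strand), had 116, 65.2 and 84.4 CPM in Mdl-1-/- IL-23 libraries, 72.8, 84.6 and 46.8 CPM in WT IL-23 libraries and 336, 308 and 353 CPM in WT GFP libraries. Both IL-23 groups overlapped and lay below the GFP group. Wif1 was 4.87-fold lower in WT IL-23 than in GFP ears (log2 fold change -2.28, SE 0.23, adjusted p = 6.80e-06) and 3.75-fold lower in Mdl-1-/- IL-23 than in GFP ears (-1.91, SE 0.22, adjusted p = 0.000104). Both calls held in all 18 alternatives, and the log2 difference between genotypes was 0.37 (95% interval -0.17 to 0.92, adjusted p = 0.261).

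Frzb, a secreted Frizzled-related protein known from cartilage, had 54.3, 40.1 and 43.6 CPM in Mdl-1-/- IL-23 libraries, 64.2, 47.3 and 26.7 CPM in WT IL-23 libraries and 102, 108 and 111 CPM in WT GFP libraries. The IL-23 groups overlapped, and both lay below GFP. Frzb was 2.30-fold lower in WT IL-23 than in GFP ears (log2 fold change -1.20, SE 0.23, adjusted p = 0.00102) and 2.33-fold lower in Mdl-1-/- IL-23 than in GFP ears (-1.22, SE 0.23, adjusted p = 0.00320). The log2 difference between genotypes was -0.01 (95% interval -0.59 to 0.57).

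Dkk3, a divergent member of the Dickkopf family, had 19.1, 12.1 and 9.30 CPM in Mdl-1-/- IL-23 libraries, 10.7, 6.11 and 4.94 CPM in WT IL-23 libraries and 24.4, 25.0 and 28.0 CPM in WT GFP libraries. Every IL-23 library lay below every GFP library, and Mdl-1-/- library 3 fell within the WT IL-23 range. Dkk3 was 3.49-fold lower with IL-23 in wild type (log2 fold change -1.80, SE 0.29, adjusted p = 0.000146) and 1.91-fold lower in Mdl-1-/- IL-23 than in GFP ears (-0.93, SE 0.27, adjusted p = 0.0241). The second call did not hold without GFP library 1 (adjusted p = 0.0565) or 3 (0.100) or Mdl-1-/- library 2 (0.108) or 3 (0.108). The Dkk3 difference between genotypes missed the threshold (log2 0.87, SE 0.30, adjusted p = 0.0562) and passed it with DESeq2 (0.0492), with upper-quartile scaling (0.0452), without a count filter (0.0118), with the replicate block (0.0314), without WT IL-23 library 1 (0.0154) and without Mdl-1-/- library 3 (0.0378).

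Dkk2, which binds the Lrp co-receptors, had 11.8, 3.19 and 2.62 CPM in Mdl-1-/- IL-23 libraries, 0.913, 1.75 and 2.63 CPM in WT IL-23 libraries and 7.44, 5.84 and 6.92 CPM in WT GFP libraries. Mdl-1-/- library 1 was the highest of all 9, while the other two Mdl-1-/- libraries were close to the highest WT IL-23 library. Dkk2 fell 3.95-fold with IL-23 in wild type (log2 fold change -1.98, SE 0.56, adjusted p = 0.0110), a call lost without WT IL-23 library 1 (0.0528). Its log2 fold change of 1.79 between genotypes (SE 0.58, adjusted p = 0.0469) was 0.78 without Mdl-1-/- library 1 (adjusted p = 0.326). That call was also lost with limma voom (adjusted p = 0.119), in a fit of the 2 groups compared (0.0689) and without GFP library 1 (0.0538), 2 (0.0553) or 3 (0.0603) or WT IL-23 library 1 (0.136), 2 (0.135) or 3 (0.0683).

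Sfrp5, which binds WNT ligands, had 1.34, 0.456 and 3.58 CPM in Mdl-1-/- IL-23 libraries, 0.685, 1.96 and 0.329 CPM in WT IL-23 libraries and 2.77, 2.37 and 4.92 CPM in WT GFP libraries. The WT IL-23 values lay below the GFP values, and the Mdl-1-/- values overlapped both. Its log2 fold change of -1.65 with IL-23 in wild type (SE 0.65, adjusted p = 0.0491) was at the threshold. The alternatives that ended it included RLE scaling (adjusted p = 0.0511), DESeq2 (0.0555) and leaving out GFP library 1 (0.0670) or 3 (0.201), WT IL-23 library 1 (0.150) or 3 (0.145) or Mdl-1-/- library 1 (0.0534), and without WT IL-23 library 2 the log2 fold change was -2.60. Sfrp1, of the same family, ran between 53.2 and 88.0 CPM over all libraries and was not called in any comparison. Notum, an enzyme that strips the lipid from WNT proteins, was too low to test, with 6, 1 and 14 counts over the Mdl-1-/- IL-23, WT IL-23 and WT GFP groups.

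**Figure D3:**
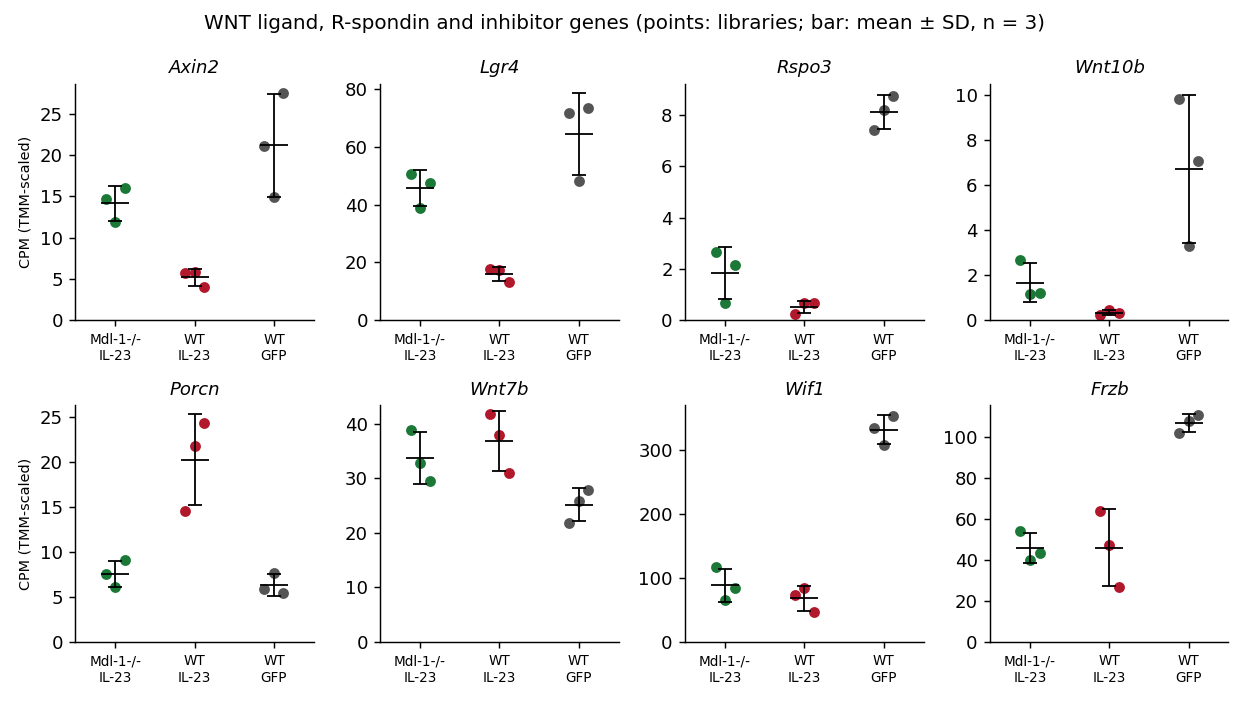
CPM of 8 WNT genes in each library (points), with the mean and SD of 3 libraries (bars), for Mdl-1-/- IL-23, WT IL-23 and WT GFP ears. Axin2 and Lgr4 are lowest in WT IL-23 ears, Wif1 and Frzb are low in both IL-23 groups, and Porcn is highest in WT IL-23 ears.

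The nuclear factors of the pathway were lower in WT IL-23 than in GFP ears in 3 of 4 genes, beside 21.7% of all tested genes, and none was called between genotypes under IL-23. Among them Lef1 passed the filter on low counts through the GFP libraries alone, and its call was lost in 5 of 17 alternatives. Tcf7l2 had 48.8, 41.9 and 33.6 CPM in Mdl-1-/- IL-23 libraries, 32.7, 31.2 and 30.3 CPM in WT IL-23 libraries and 63.8, 59.7 and 64.7 CPM in WT GFP libraries. The 3 groups did not overlap. Tcf7l2 was 2.002-fold lower with IL-23 in wild type (log2 fold change -1.001, SE 0.16, adjusted p = 0.000132) and 1.52-fold lower in Mdl-1-/- IL-23 than in GFP ears (-0.60, SE 0.16, adjusted p = 0.0140). The second call did not hold without GFP library 1 (adjusted p = 0.0554) or 3 (0.0678) or Mdl-1-/- library 2 (0.0540) or 3 (0.0818). Tcf7l1, which acts mostly as a repressor and is known from hair follicle stem cells, had 6.01, 5.47 and 3.81 CPM in Mdl-1-/- IL-23 libraries, 3.42, 4.80 and 2.63 CPM in WT IL-23 libraries and 11.9, 9.31 and 10.8 CPM in WT GFP libraries. Both IL-23 groups lay below GFP and overlapped each other. Tcf7l1 was 2.88-fold lower with IL-23 in wild type (log2 fold change -1.52, SE 0.30, adjusted p = 0.000682) and 2.09-fold lower in Mdl-1-/- IL-23 than in GFP ears (-1.06, SE 0.28, adjusted p = 0.0158), the second call being lost without GFP library 1 (0.0718) or 3 (0.0603) or Mdl-1-/- library 3 (0.0728).

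Lef1 and Tcf7 act in hair follicle cells and also in T cells. Lef1 had 0.891, 1.14 and 0.477 CPM in Mdl-1-/- IL-23 libraries, 1.14, 0.218 and 0.659 CPM in WT IL-23 libraries and 1.90, 2.92 and 1.998 CPM in WT GFP libraries. The GFP libraries lay above all others, and the IL-23 groups overlapped, on 5 or fewer counts in each library. With IL-23 in wild type its log2 fold change was -1.73 (SE 0.59, adjusted p = 0.0268). The Lef1 call was lost with DESeq2 (adjusted p = 0.0622), without GFP library 2 (0.0851) or 3 (0.0536) and without WT IL-23 library 2 (0.137) or 3 (0.0681). Tcf7 had 7.79, 5.47 and 7.15 CPM in Mdl-1-/- IL-23 libraries, 7.76, 3.93 and 3.29 CPM in WT IL-23 libraries and 5.88, 4.20 and 6.00 CPM in WT GFP libraries, with all groups overlapping and no call. The 18 listed markers of T and innate lymphoid cells summed to 126 to 167 CPM in Mdl-1-/- IL-23 libraries, 170.3 to 182 CPM in WT IL-23 libraries and 70.9 to 109 CPM in WT GFP libraries. Of 11 tested, 5 rose with IL-23 in wild type (45.5%, beside 22.9% of all tested genes). The part of these cells in the Tcf7 and Lef1 values was not tested.

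Axin2, the feedback target of β-catenin signalling (chromosome 11, 108920349 to 108950783, plus strand), had 14.7, 11.8 and 15.97 CPM in Mdl-1-/- IL-23 libraries, 5.71, 5.89 and 3.95 CPM in WT IL-23 libraries and 21.1, 14.97 and 27.5 CPM in WT GFP libraries. The WT IL-23 libraries lay below all others, and the Mdl-1-/- and GFP groups overlapped. Axin2 fell 4.03-fold with IL-23 in wild type (log2 fold change -2.01, SE 0.27, adjusted p = 3.29e-05) and was 2.68-fold higher in Mdl-1-/- than in WT ears under IL-23 (1.42, SE 0.28, adjusted p = 0.00425). Both calls held in all 18 alternatives. The log2 difference between Mdl-1-/- IL-23 and GFP ears was -0.59 (SE 0.24, adjusted p = 0.101), and without GFP library 2 it was -0.75 (adjusted p = 0.0350).

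**Figure D4:**
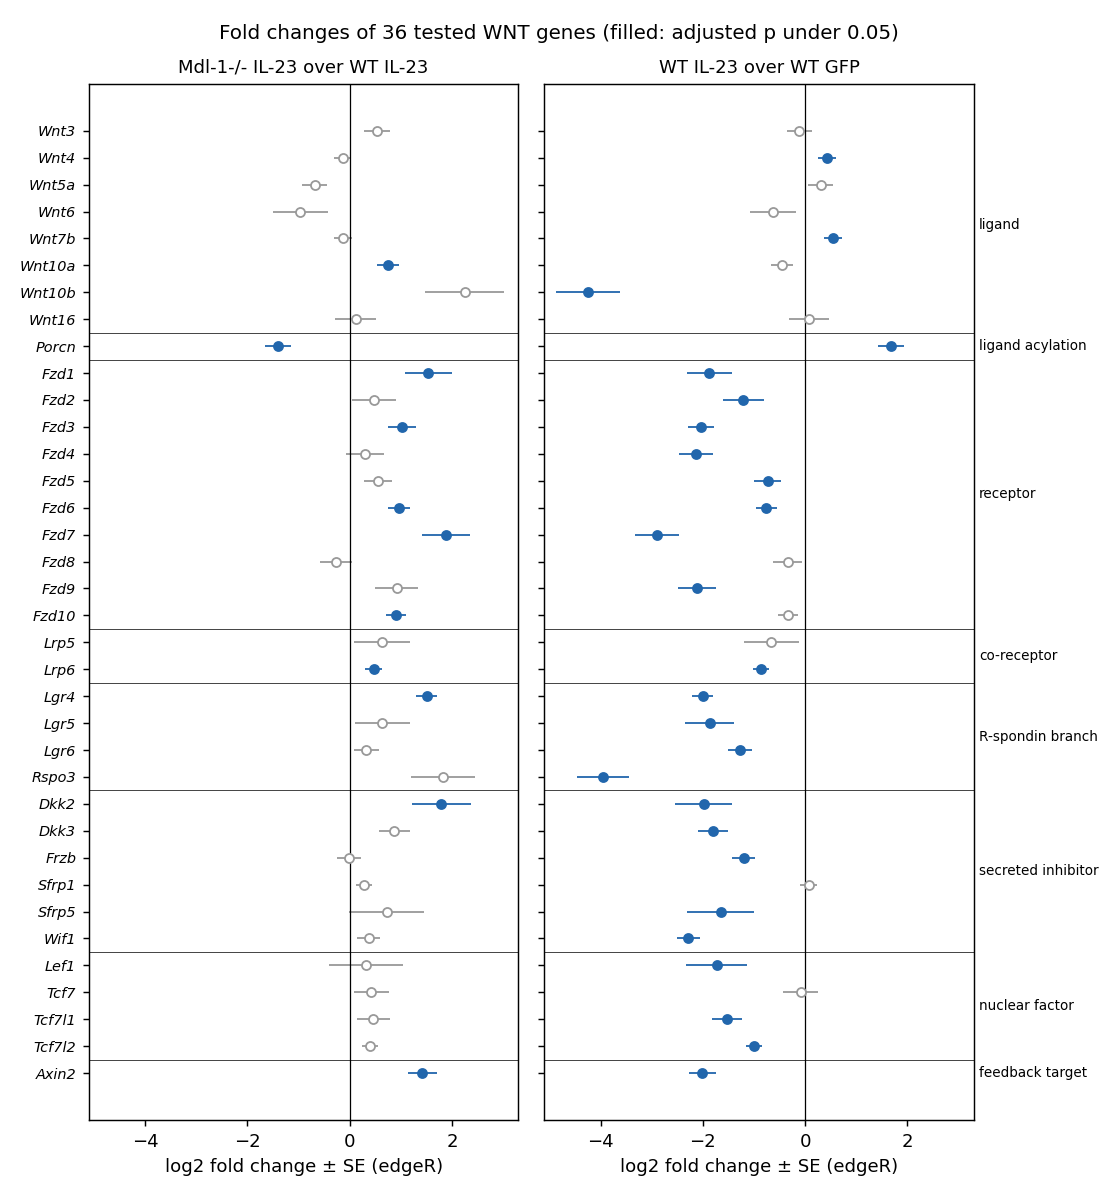
Log2 fold change with its standard error (bars) for the 36 tested WNT genes by role, for Mdl-1-/- IL-23 over WT IL-23 (left) and WT IL-23 over WT GFP (right); filled points have an adjusted p under 0.05. Filled points lie mostly left of 0 in the right panel (23 of 26) and mostly right of 0 in the left panel (10 of 11), with Porcn on the other side in both. The WT IL-23 libraries enter both panels.

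TCF and LEF factors bind a short motif, and the 250 bases before the RefSeq start of members were read for it because many members moved together. The search took in the motif CTTTGAA, the form that ends otherwise as CTTTGAT, the further form written CTTTGTA and finally the form written CTTTGTT, each on both strands, so that matches on opposite strands can overlap. RefSeq promoter entries on GRCm38.p6 matched 27 of the 42 members, with 34 windows in all. A match was found in 4 of these 34 windows (11.8%), beside 4874 of 32851 windows of all genes (14.8%). A match is a run of letters and does not show binding. The window of Axin2, the feedback target, holds none of these letters, at chr11:108920099-108920348 on the plus strand. Matches, in capitals below, lay in the windows of Fzd7 at chr1:59481897-59482146 (plus strand), starting 130 bases before the transcript start, and of the nuclear factor gene Tcf7l2 at chr19:55895071-55895320 (plus strand, an internal start of the gene), starting 14 bases before. The other 2 windows with a match belong to Lef1 (147 bases before an internal start) and Wnt5b (71 bases before an internal start).
Axin2: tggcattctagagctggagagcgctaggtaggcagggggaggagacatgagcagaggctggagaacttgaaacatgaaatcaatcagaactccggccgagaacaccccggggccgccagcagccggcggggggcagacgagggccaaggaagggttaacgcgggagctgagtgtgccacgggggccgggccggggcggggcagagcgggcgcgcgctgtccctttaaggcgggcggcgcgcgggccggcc
Fzd7: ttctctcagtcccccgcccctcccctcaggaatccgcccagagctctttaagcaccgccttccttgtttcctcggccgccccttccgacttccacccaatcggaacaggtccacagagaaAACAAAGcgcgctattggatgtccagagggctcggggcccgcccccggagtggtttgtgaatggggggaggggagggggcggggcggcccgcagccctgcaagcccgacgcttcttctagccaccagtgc
Tcf7l2: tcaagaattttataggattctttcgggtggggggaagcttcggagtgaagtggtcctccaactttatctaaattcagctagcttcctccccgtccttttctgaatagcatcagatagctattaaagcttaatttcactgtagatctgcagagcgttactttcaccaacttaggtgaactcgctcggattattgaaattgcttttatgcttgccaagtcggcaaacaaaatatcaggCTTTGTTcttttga

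Beyond the 42 members, a list of 70 other WNT pathway genes (69 in the files, 56 tested) moved in both directions. With IL-23 in wild type 18 of the 56 fell (32.1%, beside 21.7% of all tested genes) and 11 rose (19.6%, beside 22.9%), and the median of the list was -0.39 on the log2 scale. Those lower by the most included Pygo1, a nuclear cofactor of β-catenin (log2 fold change -3.15, SE 0.39), Gpc3, a cell-surface glypican (-2.88, SE 0.50), and Nkd2, which binds Dishevelled (-1.95, SE 0.50). Ror1 (-1.86, SE 0.45) and Ptk7 (-1.52, SE 0.37), receptors of β-catenin-independent signalling, and Lrp4 (-1.66, SE 0.26), a receptor for the inhibitor sclerostin, were lower too. Among the rises, Cd44 was the only one of at least 2-fold (log2 fold change 1.13, SE 0.17). The carrier Wls, which takes WNT proteins to the cell surface, averaged 197 ± 5.49 CPM in Mdl-1-/- IL-23 ears, 158 ± 8.31 CPM in WT IL-23 ears and 210.4 ± 12.2 CPM in WT GFP ears (SD, n = 3). Under IL-23, 8 of the 56 were higher in Mdl-1-/- than in WT ears (14.3%, beside 7.58% of all tested genes) and 7 lower (12.5%, beside 10.1%). Pygo1 (log2 fold change 2.31, SE 0.41), Ptk7 (1.94, SE 0.37) and Lrp4 (1.16, SE 0.27) were higher, and Prickle2, a planar polarity gene, was lower (-1.02, SE 0.22). Against GFP ears, 2 of the 56 were higher (3.57%, beside 10.2% of all tested genes) and 6 lower (10.7%, beside 6.93%) in Mdl-1-/- IL-23 ears.

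Marker lists of cell types in ear skin are given beside the WNT results, some differing between groups and some not. In these whole-tissue samples, fewer cells of a type and less RNA per cell cannot be told apart. The 20 hair follicle markers summed to 1451 to 2675 CPM in Mdl-1-/- IL-23 libraries, 1181 to 1532 CPM in WT IL-23 libraries and 3776 to 4781 CPM in WT GFP libraries. Krt15, a keratin of follicle stem cells, averaged 819 ± 449 CPM in Mdl-1-/- IL-23 ears, 278 ± 113 CPM in WT IL-23 ears and 3205 ± 444 CPM in WT GFP ears (SD, n = 3). Without Krt15, a sum taken after its values were seen, the other 19 markers summed to 933 to 1340 CPM in Mdl-1-/- IL-23 libraries, 1032 to 1208 CPM in WT IL-23 libraries and 1084 to 1294 CPM in WT GFP libraries, and the 3 groups overlapped. Krt79 and Gata3 took most of that sum and were not called in any comparison. In Mdl-1-/- IL-23, WT IL-23 and WT GFP ears Krt79 averaged 311, 392 and 350 CPM and Gata3 580, 556 and 504 CPM. The sum thus says little of the lower markers. Of 13 tested, 6 fell (46.2%, beside 21.7% of all tested genes) and 2 rose (15.4%, beside 22.9%) with IL-23 in wild type. The list's median log2 fold change was 0.14. The 6 that fell were Krt15, Sox9 (log2 fold change -1.32, SE 0.17), Lhx2 (-1.75, SE 0.29), Msx2 (-3.44, SE 0.73), Hoxc13 (-1.68, SE 0.39) and Dlx3 (-1.18, SE 0.40). The 2 that rose were the follicle regulator Foxn1 (0.81, SE 0.24) and the keratin Krt75 (1.64, SE 0.24). Between genotypes under IL-23, Lhx2, Msx2, Hoxc13 and Dlx3 were higher in Mdl-1-/- ears, by 1.10, 2.64, 1.81 and 1.58 on the log2 scale. Krt75 was lower (-1.15, SE 0.24). That is 30.8% of the tested list higher, beside 7.58% of all tested genes, and 7.69% lower, beside 10.1%. Krt15 (adjusted p = 0.0580), Sox9 (0.0959) and Foxn1 (0.423) were not called between genotypes, and the list's median there was 0.41.

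The 16 cartilage markers summed to 367 to 545 CPM in Mdl-1-/- IL-23 libraries, 212 to 359 CPM in WT IL-23 libraries and 702 to 835 CPM in WT GFP libraries. Of 12 tested, 11 fell with IL-23 in wild type (91.7%, beside 21.7% of all tested genes), and Matn1 was at 0 counts in all libraries. The 14 adipocyte markers summed to 587 to 674 CPM in Mdl-1-/- IL-23 libraries, 441 to 880 CPM in WT IL-23 libraries and 1474 to 2254 CPM in WT GFP libraries. With IL-23 in wild type 11 of 12 tested fell (91.7%, beside the same 21.7%). The lists for Schwann cells (6 of 7 tested lower, 1 higher), skeletal muscle (5 of 13 lower), endothelium (1 of 6 lower) and dermal papilla and fibroblasts (6 of 15 lower, 4 higher, Sox18 at 0 counts) held such calls beside 21.7% of all tested genes lower and 22.9% higher. In Mdl-1-/- IL-23 relative to GFP ears, markers called lower were 11 of 12 for adipocytes, 10 of 12 for cartilage and 6 of 7 for Schwann cells. The counts were 1 of 13 for muscle, 2 of 6 for endothelium and 3 of 15, with 2 higher, for fibroblasts. Of all tested genes 6.93% were lower and 10.2% higher there. Between genotypes no tested adipocyte or cartilage marker was called. Schwann cell markers summed to 145 to 213 CPM in Mdl-1-/- IL-23 libraries, 178 to 236 CPM in WT IL-23 libraries and 364 to 399 CPM in WT GFP libraries. Muscle markers summed to 642 to 2301 CPM in Mdl-1-/- IL-23 libraries, 993 to 1151 CPM in WT IL-23 libraries and 1824 to 3254 CPM in WT GFP libraries. Endothelial markers summed to 33.0 to 43.9 CPM in Mdl-1-/- IL-23 libraries, 33.3 to 67.4 CPM in WT IL-23 libraries and 52.7 to 59.3 CPM in WT GFP libraries. Fibroblast markers summed to 668 to 1071 CPM in Mdl-1-/- IL-23 libraries, 789 to 1225 CPM in WT IL-23 libraries and 1033 to 1435 CPM in WT GFP libraries.

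Keratinocyte markers, which a skin sample should hold, were at high levels in every library. The 15 markers summed to 30080 to 34600 CPM in Mdl-1-/- IL-23 libraries, 23660 to 26670 CPM in WT IL-23 libraries and 11440 to 15680 CPM in WT GFP libraries. With IL-23 in wild type 7 of 15 rose (46.7%, beside 22.9% of all tested genes) and 3 fell (20%, beside 21.7%). Under IL-23, 5 of 15 were higher in Mdl-1-/- than in WT ears (33.3%, beside 7.58% of all tested genes) and 1 lower (6.67%, beside 10.1%). The part of these cell types in the WNT results was not tested.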

How the data were processed

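RNA of 9 mouse ears' libraries was sequenced by 3' tag RNA-Seq. The authors deposited 3 matrices of whole-number counts per gene, made with STAR 2.7.0a and featureCounts per the submitters' processing notes, which also name edgeR and the build GRCh38.p6. The name belongs to a human assembly although gene identifiers are from mouse, so the files' build is uncertain, and printed gene positions are those of the GENCODE M21 annotation of GRCm38. The deposited log2 fold changes and adjusted p-values (false discovery rates) are the authors' own, and were used only for the closing observations. Members and gene lists were chosen with earlier results of these data known.

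The matrices were joined (0 values differed between them), and the tests were run in R 4.3.3 using edgeR 4.0.16. To be tested, genes had to pass filterByExpr at a minimum count of 10 and a total of 15, which left 13807. TMM scaling, robust quasi-likelihood fits of 3 group means over 9 libraries (6 residual degrees of freedom) and Benjamini-Hochberg adjustment over all tested genes followed, with a threshold of 0.05. Standard errors are the log2 fold change over the root of F, and 95% intervals follow from them with a t distribution on 6 degrees of freedom. The p-values are those of the quasi-likelihood test and rest on other degrees of freedom, so an interval and its p-value can differ. The pipeline was tested on simulated data. Alternatives were upper-quartile and RLE scaling, no filter, a minimum count of 30, DESeq2 1.42.0, limma 3.58.1 voom, non-robust dispersions, only the 2 groups compared, a replicate block and leaving out each library. Library totals of 3776188 to 5605713 counts limit low genes, and a floor is 3 counts; count ratios carry exact intervals that cover counting error only.

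Genes named with all their values were those called and at least 2-fold different from GFP in either IL-23 group, those called between genotypes under IL-23, and Axin2, Lef1, Tcf7, Tcf7l1 and Tcf7l2. Beyond this rule, Wnt5a, not called in any comparison, and Wnt5b, as counts, were given too. The strand setting of the counting is not given in the sources used here, so reads of members overlapped by other genes (Axin2, Rspo3, Lgr5, Wnt5b, Wnt6, Wnt7b, Lef1, Tcf7, Tcf7l1, Tcf7l2, Fzd3, Fzd5 and Fzd6 among them) may include those genes' reads. Promoter sequences come from RefSeq on GRCm38.p6.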

Additional observations from a re-analysis of the deposited data

How the results depend on the processing

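The number of WNT genes called ranged over the leave-one-out fits from 21 to 27 for WT IL-23 against GFP (26 with all libraries), from 6 to 11 between genotypes under IL-23 (11) and from 6 to 14 for Mdl-1-/- IL-23 against GFP (13). Over all genes these counts were 4622 to 6352, 1128 to 2802 and 1340 to 2580, in place of 6169, 2439 and 2359. Under all alternatives run for them, 19 of 26, 5 of 11 and 4 of 13 WNT calls held, and no called gene reversed. Reversals of sign were limited to 29 values that were called in neither fit. With upper-quartile scaling Wnt16 was at -0.0722 and Sfrp1 at -0.0810 on the log2 scale for WT IL-23 against GFP, and the median over all genes was -0.20, in place of -0.04. Frzb between genotypes was at 0.0419 with upper-quartile scaling, 0.0053 at a minimum count of 30, 0.0389 with limma voom, 0.0261 with only the 2 groups compared and 0.0175 with the replicate block. Leave-one-out ranges that crossed 0 were, for WT IL-23 against GFP, Wnt3 -0.42 to 0.14, Tcf7 -0.55 to 0.12, Wnt16 -0.0444 to 0.18 and Sfrp1 -0.0620 to 0.20. Between genotypes they were Frzb -0.27 to 0.30, Lef1 -0.13 to 1.03, Lgr5 -0.13 to 1.03, Wnt16 -0.17 to 0.34 and Sfrp5 -0.22 to 1.69. For Mdl-1-/- IL-23 against GFP they were Fzd5 -0.32 to 0.0654, Lrp5 -0.32 to 0.30, Wnt16 -0.0847 to 0.43 and Dkk2 -1.20 to 0.17. The cause was not tested.

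With the replicate number as a block, the WNT counts were 25, 13 and 15 and the counts over all genes 6257, 2800 and 2682. Same-numbered libraries correlated between -0.0863 and 0.23 in their deviations from group means, and differently numbered ones between -0.214 and 0.175. Whether same-numbered libraries share more than a number was not tested. Under the block Wnt10b (adjusted p = 0.0331) and Dkk3 (0.0314) passed between genotypes, Lgr4 (0.0473) and Lgr5 (0.0378) passed for Mdl-1-/- IL-23 against GFP, and Sfrp5 (0.0611) was lost for WT IL-23 against GFP in edgeR. Genes with few counts in WT IL-23 libraries have the least certain fold changes.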

Other observations

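In the authors' deposited tables, 22 of the 36 tested WNT genes had a false discovery rate under 0.05 for WT IL-23 against GFP, of which 21 had a negative and 1 a positive log2 fold change. All 22 were also called here with the same sign. The authors' deposited table for Mdl-1-/- IL-23 against GFP called 11, all negative and all called here. The authors' deposited table of both IL-23 groups called 9, all called here, and its signs run the other way in 35 of 36 genes, so its fold changes appear to be WT over Mdl-1-/-.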
